A study of Mus musculus with 2 samples.

Results

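Glucocorticoid receptor signalling is represented here by 10 genes: the receptor gene Nr3c1, the hormone-activating enzyme gene Hsd11b1 and 8 genes known to respond to glucocorticoids (Fkbp5, Tsc22d3, Sgk1, Errfi1, Dusp1, Klf9, Zbtb16 and Rasd1). They were chosen by symbol from the 37315 genes counted, with the values of these libraries already known, so their differences are a description and support nothing by themselves. RNA from inguinal white fat, a subcutaneous depot, was sequenced in 2 libraries, 1 from entacapone-treated and 1 from vehicle-treated mice. Both came from male C57BL/6 mice aged 23 weeks with obesity induced by a high-fat diet, so no lean animal stands beside them. Entacapone is a Parkinson disease drug that inhibits catechol-O-methyltransferase. What dose was used, for how long, at which hour fat was collected and how many mice each library holds is not given in the sources used here. Values with entacapone and with vehicle below mean those of these libraries.

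The glucocorticoid receptor rests in the cytoplasm in a complex with HSP90 chaperones, binds corticosterone, the main glucocorticoid of mice, and then moves to the nucleus. There it binds DNA as a dimer at a palindromic element and raises or lowers transcription of nearby genes. In fat, HSD11B1 regenerates corticosterone from its inert form inside the cell, and glucocorticoids are known to act on adipocyte differentiation, lipolysis and fat storage.

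The data are read counts per gene, with 12979673 counted reads with entacapone and 13620056 with vehicle. Levels are given as CPM, that is, counts scaled to a common library size (TMM). The 12 adipocyte markers, which the tissue label calls for, were all measured and summed to 47758 CPM with entacapone and 41474 CPM with vehicle. Single adipocyte markers ranged from Cfd, 3.05-fold higher with entacapone, to Lep, 1.34-fold lower. The 10 endothelial markers summed to 1068 CPM with entacapone and 1070.4 CPM with vehicle. Marker sums of other cells differed more between the libraries. Hepatocyte markers summed to 98.8 CPM with entacapone against 445 CPM with vehicle. Macrophage markers summed to 1255 CPM with entacapone against 2155 CPM with vehicle, and fibroblast and progenitor markers to 5142 CPM with entacapone against 8023 CPM with vehicle. Skeletal muscle markers summed to 2363 CPM with entacapone against 1546 CPM with vehicle. Mammary and skin epithelium markers summed to 101 CPM with entacapone against 32.0 CPM with vehicle. Of these marker genes, Tnnc2 of the muscle list had no read in either library, and every other one had reads in both. In such bulk tissue, fewer cells of a type and less RNA per cell cannot be told apart, and the part of these cells in the values below was not tested.

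The receptor's palindromic element was searched for, letter for letter, in promoter windows of RefSeq (GRCm38.p6), each running from 250 bases before to 50 bases after an annotated gene start. The whole element was AGAACA, any 3 bases and TGTTCT, and a half-site was AGAACA or TGTTCT. Each half-site is the other one read on the opposite strand, so the search covered both strands, and a whole element holds 2 half-sites. Windows were found by symbol for 7 of the 10 genes, 15 windows in all. None was found for Nr3c1, Rasd1 or Zbtb16, so these were not searched. The whole element was present in 3 of 32851 windows of the table (0.00913%) and in 1 of 13195 windows of measured genes, which is a window of Sgk1. Half-sites were present in 4 of the 15 windows, against 19% of all windows and 12.8% of the windows of measured genes. These 4 windows belong to Sgk1, with 3, and Tsc22d3, with 1, and Sgk1 alone has 6 of the 15. Such a match describes the letters only and is not a shown binding site.

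The sequences shown are the Sgk1 window with the whole element, the Tsc22d3 window with its half-site, and the downstream Errfi1 window as the member with the highest ratio and no match. Capitals mark the half-sites.
Sgk1, chr10:21993640-21993939, plus strand: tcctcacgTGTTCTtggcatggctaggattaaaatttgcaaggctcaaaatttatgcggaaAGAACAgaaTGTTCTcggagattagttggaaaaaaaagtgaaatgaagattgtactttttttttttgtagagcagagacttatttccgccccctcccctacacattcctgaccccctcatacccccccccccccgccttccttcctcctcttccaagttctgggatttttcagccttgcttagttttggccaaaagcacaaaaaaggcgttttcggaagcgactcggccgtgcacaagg
Tsc22d3, chrX:140600473-140600772, minus strand: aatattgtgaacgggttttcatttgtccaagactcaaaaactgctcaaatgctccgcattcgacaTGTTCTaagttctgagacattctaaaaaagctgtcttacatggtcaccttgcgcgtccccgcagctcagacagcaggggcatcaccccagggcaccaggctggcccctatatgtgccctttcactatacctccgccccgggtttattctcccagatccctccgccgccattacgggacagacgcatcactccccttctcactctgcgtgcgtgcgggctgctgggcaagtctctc
Errfi1, chr4:150854820-150855119, plus strand: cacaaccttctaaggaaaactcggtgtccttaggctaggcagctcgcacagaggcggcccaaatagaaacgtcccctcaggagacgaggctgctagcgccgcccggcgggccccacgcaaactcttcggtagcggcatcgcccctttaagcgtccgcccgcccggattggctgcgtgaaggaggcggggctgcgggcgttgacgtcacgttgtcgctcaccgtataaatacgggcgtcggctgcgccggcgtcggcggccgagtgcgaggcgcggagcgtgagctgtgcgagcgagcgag
In the Sgk1 window the whole element starts 189 bases before the annotated start, and a further half-site starts 242 bases before it. In the Tsc22d3 window the half-site starts 185 bases before the start. The deposited counts are sums over each gene, so they do not tell from which start the reads came.

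Most of the 10 genes were higher in the entacapone library. Hsd11b1 and 7 of the 8 responsive genes were higher, by 1.28-fold (Sgk1) to 2.13-fold (Errfi1), while Rasd1 was 5.12-fold lower and Nr3c1 was 1.12-fold lower. All 10 differences lay beyond counting error, that is, the exact 95% counting interval of the ratio excluded 1. With a limit of 2-fold as well, 1 gene was higher (Errfi1) and 1 lower (Rasd1). Over all 13361 genes averaging 1 CPM or more, 20.2% were higher and 21.1% lower beyond counting error, and 1.66% were higher and 3.5% lower by at least 2-fold. All 10 genes passed that expression limit. Since the genes were chosen with these values known, their counts are not read against those shares. Intervals cover counting error only: each group is 1 library, so nothing checks the differences against other mice, and no test was made.

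**Figure D1:**
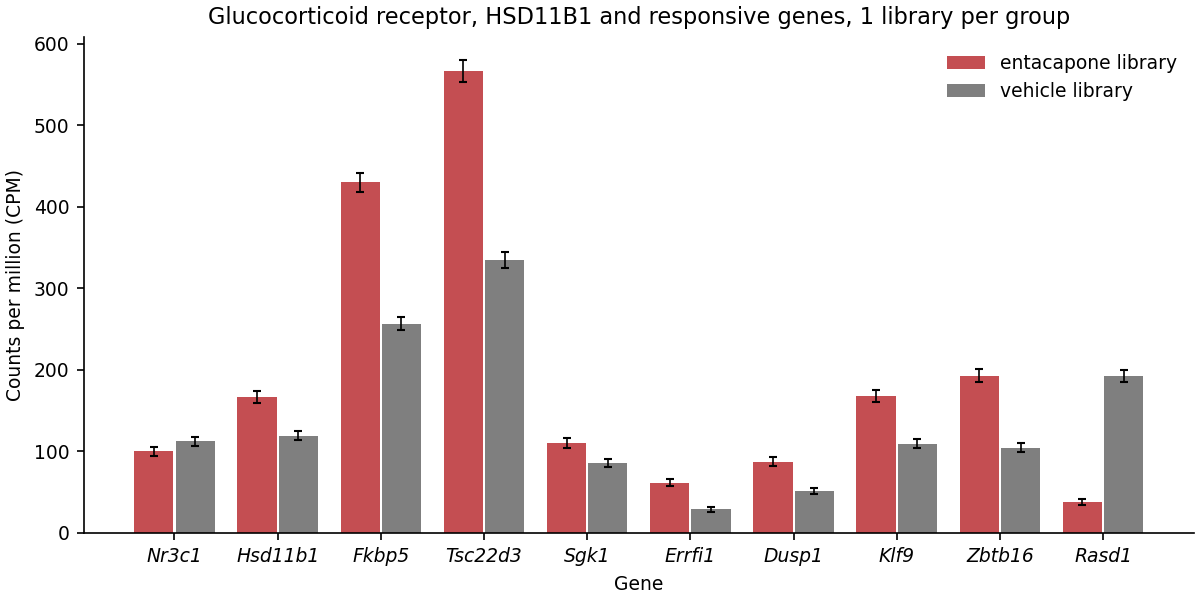
Levels of the 10 genes in CPM (vertical axis) in the entacapone library (red, left bar) and the vehicle library (grey, right bar). Error lines are exact 95% Poisson intervals, and Rasd1 is the gene with the tallest grey bar relative to red, at 37.7 CPM with entacapone and 193 CPM with vehicle.

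The receptor and the supply of its hormone were read first. Nr3c1 (chromosome 18, 39410545 to 39519421, minus strand, GRCm38) had 1283 reads with entacapone and 1552 with vehicle. These are 100.2 CPM with entacapone and 112 CPM with vehicle, with a log2 ratio of -0.16 (-0.27 to -0.06). The receptor transcript thus differed little, and it was the only gene other than Rasd1 on the lower side. Hsd11b1 (chromosome 1, 193221634 to 193264075, minus strand) had 2136 reads, or 167 CPM, with entacapone and 1646 reads, or 119 CPM, with vehicle. Its log2 ratio was 0.49 (0.39 to 0.58). Hsd11b1 is abundant in liver, and all 14 measured hepatocyte markers were lower with entacapone (median log2 ratio -2.93). Their part in the Hsd11b1 value was not tested. Its exons overlapped no other annotated exon.

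Fkbp5 encodes a co-chaperone that lowers the hormone affinity of the receptor complex and is itself induced by the receptor, as a feedback. The gene (chromosome 17, 28399094 to 28517527, minus strand) stood at 430.1 CPM (5504 reads) with entacapone and 257 CPM (3547 reads) with vehicle, a log2 ratio of 0.74 (0.68 to 0.81). Tsc22d3 encodes the leucine zipper protein GILZ, which mediates anti-inflammatory effects of glucocorticoids. The gene (chromosome X, 140539528 to 140600659, minus strand) had the most reads of the 10, with 567 CPM (7251 reads) with entacapone and 334 CPM (4620 reads) with vehicle (log2 0.76, 0.71 to 0.81). Both genes ranked close together by ratio among the 13361 measured genes, Fkbp5 at 451 and Tsc22d3 at 436 from the highest.

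The kinase pathway members were also higher. Sgk1, a serum- and glucocorticoid-induced kinase (chromosome 10, 21882184 to 21999903, plus strand), stood at 110.1 CPM (1409 reads) with entacapone and 86.1 CPM (1189 reads) with vehicle. Its log2 ratio of 0.36 (0.24 to 0.47) was the smallest among the 8 higher genes. Errfi1 encodes an inhibitor of the epidermal growth factor receptor (chromosome 4, 150853919 to 150868892, plus strand). At 61.3 CPM (785 reads) with entacapone and 28.8 CPM (398 reads) with vehicle, it had the highest ratio (log2 1.09, 0.91 to 1.27). That interval reaches below 2-fold. Dusp1, a phosphatase that switches off the p38 and JNK kinases (chromosome 17, 26505590 to 26562128, minus strand), stood at 87.4 CPM (1118 reads) with entacapone and 50.7 CPM (701 reads) with vehicle (log2 0.78, 0.65 to 0.92). Dusp1 shares 11 exon bases with Ergic1 on the other strand, which had 1516 reads with entacapone and 1519 with vehicle.

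Both transcription factor genes were higher. Klf9, a Kruppel-like factor (chromosome 19, 23141226 to 23168134, plus strand), had 167 CPM (2143 reads) with entacapone and 109 CPM (1505 reads) with vehicle, with a log2 ratio of 0.62 (0.52 to 0.72). Zbtb16, the zinc finger factor PLZF (chromosome 9, 48654297 to 48836222, minus strand), had 193 CPM (2466 reads) with entacapone and 104 CPM (1438 reads) with vehicle. Its log2 ratio of 0.89 (0.79 to 0.98) was second to that of Errfi1. Zbtb16 is also expressed in skeletal muscle, and the 15 measured muscle markers had a median log2 ratio of 0.66. Their part in the Zbtb16 value was not tested.

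Rasd1 went the other way. It encodes a small GTPase first described as dexamethasone-induced. Its relative Rasd2 had 12 reads with entacapone and 13 with vehicle. Rasd1 (chromosome 11, 59963181 to 59964944, minus strand) had 482 reads, or 37.7 CPM, with entacapone and 2662 reads, or 193 CPM, with vehicle. Its log2 ratio was -2.36 (-2.50 to -2.21). By ratio it ranked 87 from the lowest of the 13361 measured genes. Among the 1746 genes averaging 100 CPM or more, a limit set after the value was seen, Rasd1 had the lowest ratio of all. No annotated gene overlaps it.

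**Figure D2:**
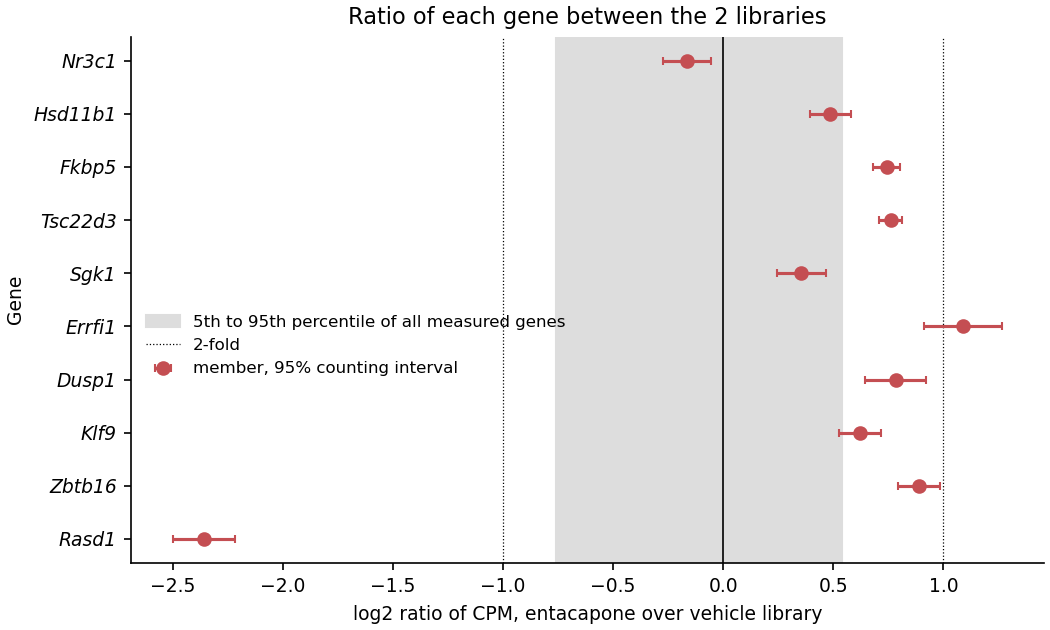
Log2 ratio of CPM, entacapone over vehicle library (horizontal axis), for each gene (rows), with 95% counting intervals. The grey band runs from the 5th to the 95th percentile of all measured genes (log2 -0.76 to 0.54, computed with a pseudocount of 0.5 CPM), the dotted lines mark 2-fold, and 6 genes lie right of the band and Rasd1 far to its left.

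**Figure D3:**
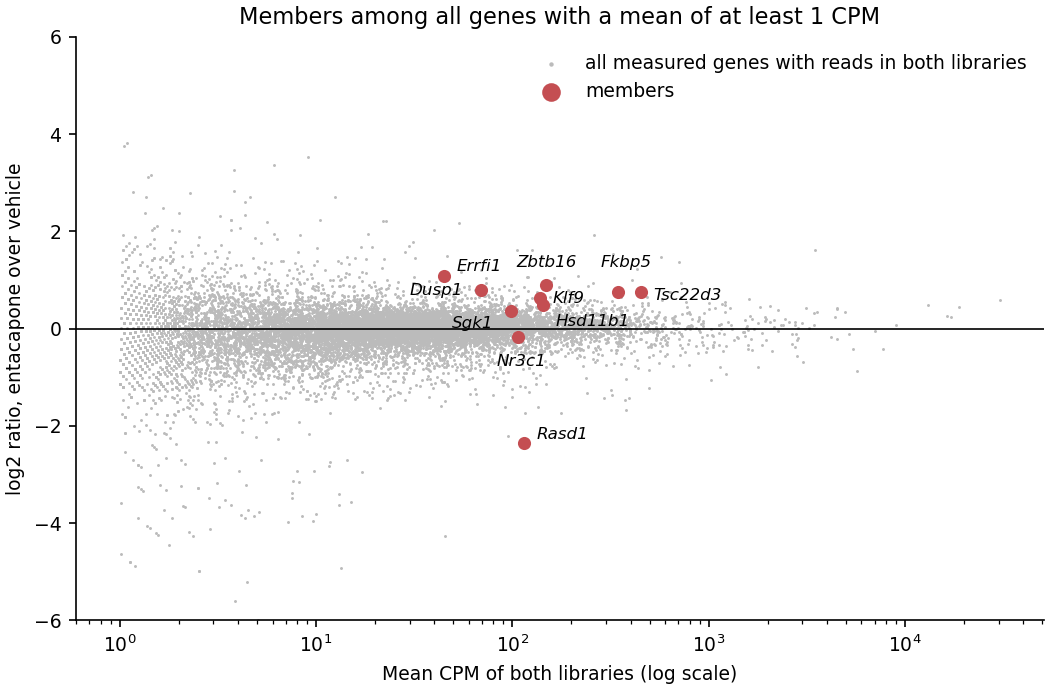
Log2 ratio, entacapone over vehicle library (vertical axis), against the mean CPM of both libraries (horizontal log axis) for the measured genes with reads in both libraries (grey) and the 10 genes (red). Rasd1 is the lowest of the 1746 genes averaging 100 CPM or more, among which Nr3c1 ranks 1369 and Hsd11b1 ranks 78 from the highest ratio.

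The levels of the genes were also ordered per length, as CPM per kilobase of annotated exon. In the entacapone library Tsc22d3 was highest at 131, followed by Fkbp5 at 45.4, Hsd11b1 at 39.3, Zbtb16 at 36.5 and Klf9 at 34.8 CPM per kilobase. Dusp1 (26.4), Rasd1 (23.4), Sgk1 (22.5), Errfi1 (17.1) and Nr3c1 (13.0) came after them on the same scale. In the vehicle library Rasd1 was highest at 119.6 CPM per kilobase, ahead of Tsc22d3 at 77.0, and Errfi1 was lowest at 8.04. Rasd1 thus stood in position 7 of 10 with entacapone and in position 1 with vehicle. The 95% counting intervals of neighbours overlapped between Hsd11b1 and Zbtb16, Zbtb16 and Klf9, Dusp1 and Rasd1, and Rasd1 and Sgk1 in the entacapone library. In the vehicle library they overlapped between Hsd11b1 and Fkbp5 and between Dusp1 and Nr3c1. Annotated exon length counts all known transcripts of a gene, so the order depends on which of them are made.

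Genes of the same families were set beside the members. Of 32 measured relatives of 37 listed by family name after the members' values were seen, 7 were higher and 8 lower beyond counting error, and 1 was at least 2-fold lower. These counts are near the shares over all measured genes (20.2% higher and 21.1% lower) and are no result about the families. In the TSC22 family, Tsc22d1 stood at 117 CPM with entacapone and 194 CPM with vehicle (log2 -0.74), Tsc22d2 was lower at -0.49, and Tsc22d4 was within counting error. Sgk3 was within counting error at a log2 ratio of -0.21. Among the phosphatases related to Dusp1, Dusp8 was higher (0.67) and Dusp9 was 2.57-fold lower at 13.9 CPM with entacapone and 35.7 CPM with vehicle. No FK506-binding protein gene other than Fkbp5 reached 1.5-fold, with measured log2 ratios from -0.40 (Fkbp11) to 0.30 (Fkbp2). In the Klf9 group, Klf14 (-0.72) and Klf10 (-0.33) were lower and Klf13 was higher (0.20).

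A second receptor for the hormone was set beside Nr3c1. The mineralocorticoid receptor gene Nr3c2, whose product also binds corticosterone, had 128 reads with entacapone and 172 with vehicle (log2 -0.32, -0.66 to 0.02). Per kilobase of exon, Nr3c2 stood at 1.54 with entacapone and 1.92 with vehicle, while Nr3c1 stood at 13.0 with entacapone and 14.6 CPM per kilobase with vehicle. The glucocorticoid receptor was therefore the more abundant transcript of the pair in both libraries.

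**Figure D4:**
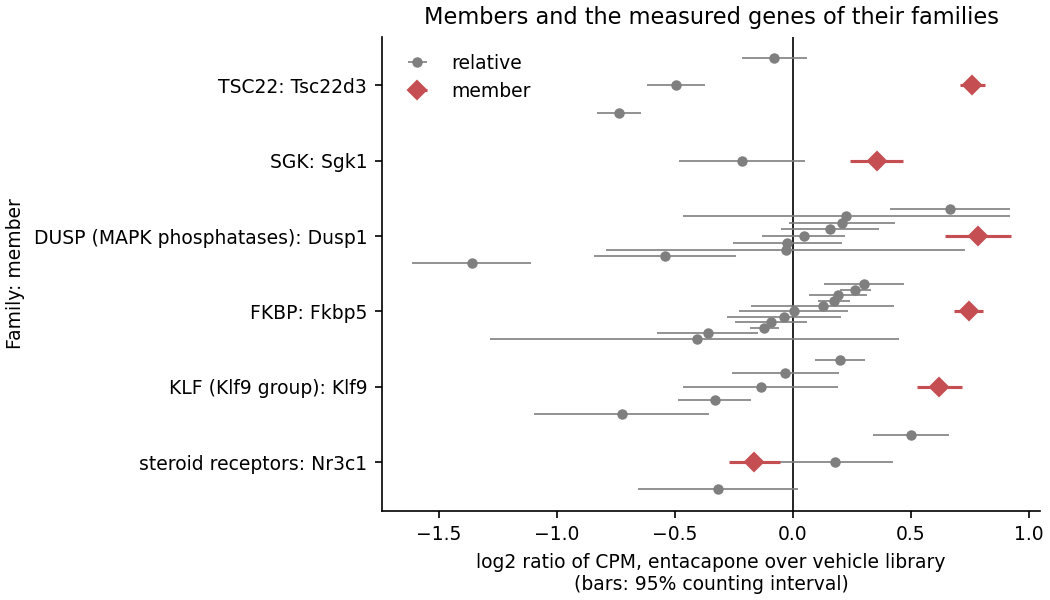
Log2 ratio of CPM, entacapone over vehicle library (horizontal axis), for 6 members (red diamonds) and the measured genes of their families (grey circles), with 95% counting intervals. Tsc22d3, Sgk1, Dusp1, Fkbp5 and Klf9 lie right of all their relatives' points, and Nr3c1 lies among its own.

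Genes for proteins that carry or assist the receptor lay between log2 ratios of -0.14 and 0.49, apart from the second receptor gene Nr3c2 at -0.32. Beyond counting error, 10 of 17 chaperone complex genes were higher and 0 lower, beside 20.2% higher and 21.1% lower of all measured genes. The median log2 ratio of the chaperone genes was 0.15, beside 0.004 over all measured genes. Hspa8, a constitutive HSP70, was highest at 1414 CPM with entacapone and 1007 CPM with vehicle (log2 0.49), followed by Hsp90ab1 (0.34). Fkbp4, which competes with FKBP5 for the complex, was at 85.7 CPM with entacapone and 75.1 CPM with vehicle (0.19, 0.07 to 0.32). The lowest were Hspa4 (-0.07) and the phosphatase gene Ppp5c (-0.04), both within counting error. The coregulator list also holds Nr3c2. Of the 19 measured genes of that list, 7 were higher and 1 lower (median 0.06), beside the same shares of all measured genes. The coactivator Ncoa3 (0.44) and the corepressor Nrip1 (0.39) were highest, and Nr3c2 (-0.32, within counting error) and Cebpb (-0.14) lowest.

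Within steroid metabolism, H6pd was higher, like Hsd11b1. H6pd encodes the enzyme that supplies NADPH to HSD11B1 in the endoplasmic reticulum, and it stood at 884 CPM (11308 reads) with entacapone and 562 CPM (7767 reads) with vehicle (log2 0.65, 0.61 to 0.69). Hsd11b2, which inactivates corticosterone, had 18 reads with entacapone and 21 with vehicle, too few to see any but a large difference. Of 13 measured genes of the list, 2 were higher (H6pd, and Cbr1 at 0.23) and 2 lower beyond counting error. Of all measured genes, 20.2% were higher and 21.1% lower. The median of the list was 0.01, with Srd5a3 (-0.17) and Hsd3b7 (-0.12) lowest. The adrenal enzyme genes Cyp11b1, with no read in either library, and Cyp21a1, with 5 reads with entacapone and 0 with vehicle, were at or near 0.

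Other genes known to be induced by glucocorticoids in fat, muscle, liver or cultured cells were mostly higher. Of 49 measured, 32 were higher and 9 lower beyond counting error, beside 20.2% higher and 21.1% lower of all measured genes. By at least 2-fold, 8 were higher and 0 lower, beside 1.66% and 3.5% of all measured genes. The median log2 ratio of the list was 0.41. That list was also drawn up with earlier results known. Cited2, a transcriptional coregulator, was highest (log2 1.61, 1.48 to 1.73). The metallothionein genes Mt2, at 836 CPM with entacapone and 302 CPM with vehicle, and Mt1 (1.36) came next. Reads of Mt1 and Mt2 may be split unevenly, since their sequences are alike. Hif3a (1.23, 0.71 to 1.78), a hypoxia-inducible factor subunit, had 98 reads with entacapone and 45 with vehicle. Cebpd, an early adipogenic factor, stood at 96.3 CPM with entacapone and 41.7 CPM with vehicle (1.21, 1.06 to 1.35).

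Of the same list, Fam107a (1.12), the protease gene Adamts1 (1.05) and the phagocytic receptor gene Mertk (1.01) were also past 2-fold. Their counting intervals all reach below 2-fold. Mertk is a macrophage marker too, and it was the single higher one among 16 macrophage markers, of which 13 were lower. Its level was 61.2 CPM with entacapone and 30.5 CPM with vehicle. The list also held lower genes. Ddit4, an inhibitor of mTOR signalling, was at 102 CPM with entacapone and 142 CPM with vehicle (-0.48, -0.58 to -0.38). The acyl-CoA synthetase gene Acsl1 was at -0.44 and the glycerol phosphate dehydrogenase gene Gpd1 at -0.35. Tat, a liver enzyme, was under 1 CPM on average, with 2 reads with entacapone and 22 with vehicle, and it is also among the hepatocyte markers.

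**Figure D5:**
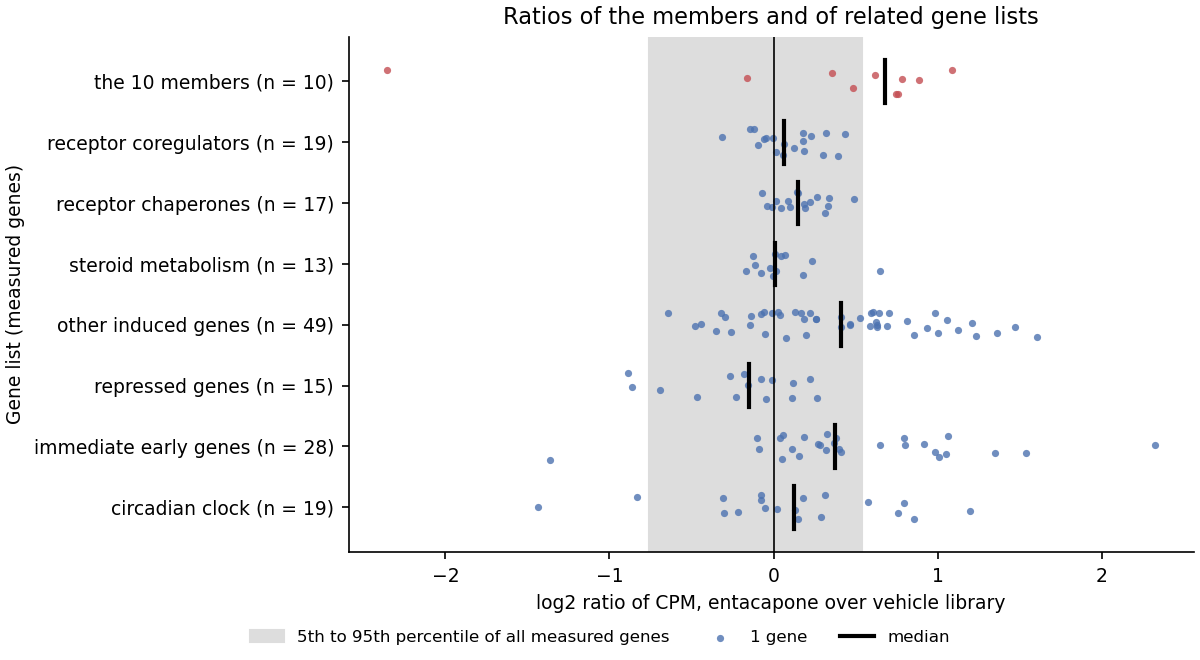
Log2 ratio of CPM, entacapone over vehicle library (horizontal axis), for each measured gene (points) of the 10 members and of 7 related lists (rows), with the median of each (black line, computed with a pseudocount of 0.5 CPM). The grey band is the 5th to 95th percentile of all measured genes, and the medians of the members (0.68), the other induced genes (0.41) and the immediate early genes (0.37) lie furthest right.

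Genes known to be repressed by glucocorticoids were read in the same way. Of 25 listed, 15 were measured, and beyond counting error 3 were higher and 4 lower (median -0.15). These counts, too, are near the 20.2% higher and 21.1% lower of all measured genes. The matrix protease gene Mmp3 (0.27, 0.15 to 0.39) and the growth factor gene Csf1 (0.22) were highest. Mmp9, a protease of neutrophils and macrophages, was at 6.02 CPM with entacapone and 10.9 CPM with vehicle (-0.86, -1.28 to -0.46). Lif was at -0.89 (-1.93 to 0.08) on 14 reads with entacapone and 28 with vehicle. The collagen genes Col1a1 (-0.46) and Col3a1 (-0.69) were lower, as were the fibroblast and progenitor markers, a list that holds both (11 of 12 lower). The cytokine genes Il6, Tnf and Il1b had at most 14 reads in either library.

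Dusp1, Sgk1 and Errfi1 are also known as immediate early genes, which respond to many stimuli including tissue handling. A list of 28 other such genes was likewise drawn up with earlier results known, and its median was 0.37. Beyond counting error, 17 were higher and 1 was lower, beside 20.2% higher and 21.1% lower of all measured genes. By at least 2-fold, 6 were higher and 1 was lower, beside 1.66% and 3.5% of all measured genes. Fosb was at 7.27 CPM with entacapone and 1.45 CPM with vehicle (log2 2.33, 1.62 to 3.10), and Ccn1, a target of mechanical signalling, at 483 CPM with entacapone and 166 CPM with vehicle (1.54). The other genes past 2-fold on the higher side were Nr4a3 (1.35), Fosl2 (1.07), Egr3 (1.05) and Myc (1.01). Their counting intervals all reach below 2-fold. Egr3 (interval 0.03 to 2.14) had 25 reads with entacapone and 13 with vehicle. Nr4a3 (interval 0.41 to 2.36) had 33 reads with entacapone and 14 with vehicle. Fos was within counting error (-0.10, -0.34 to 0.14), and Atf3, a stress factor, was lower at 5.24 CPM with entacapone and 13.5 CPM with vehicle (-1.36). The part of these genes' stimuli in the values of Sgk1, Dusp1 and Errfi1 was not tested.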

How the data were processed

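RNA from inguinal white fat was sequenced in 1 entacapone and 1 vehicle library, grouped by the treatment label. Raw counts of reads per Ensembl gene were deposited by the authors. The submitters' processing notes name TopHat2 2.1.1, HTSeq 0.6.0 and mm10. How reads with several positions were counted, and on which annotation, is not given in the sources used here. Per the labels' protocols, mRNA was bead-purified and libraries were made with a TruSeq v2 kit, which does not mark strand.

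Gene identifiers were matched to GENCODE M21 (GRCm38, the assembly of mm10). The 1782 unmatched identifiers held 0.188% of the entacapone and 0.181% of the vehicle reads. CPM came from effective library sizes (edgeR 4.0.16, TMM). Each ratio carries an exact 95% interval, converted from a Clopper-Pearson interval on the share of reads from entacapone (scipy 1.17.1). Genes averaging 1 CPM or more count as measured. List medians used log2 of CPM plus 0.5. Depth limits precision, and intervals cover counting error only, since each group is 1 library. The reads carry no molecular identifiers, and the intervals do not account for duplicate reads. The intervals were tested on simulated Poisson counts, the model they assume. That covered the calculation only and not variation between mice.

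The members, the 7 related lists, the 7 marker lists and the limits were chosen with earlier results of these data known. Named from each list are the 2 highest and 2 lowest measured genes (6 and 4 for the other induced genes) and genes past 2-fold; other names were chosen after their values were seen, and some genes within the rule are not reported here. Alternatives covered scaling (DESeq2 1.42.0 size factors among others), expression and fold limits, interval level, pseudocount and list mean.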

Additional observations from a re-analysis of the deposited data

How the results depend on the processing

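The log2 ratio of each of the 10 genes kept its direction and stayed inside its own counting interval under every other scaling. These were DESeq2 size factors, total counts, upper-quartile scaling and TMM without the hepatocyte, skeletal muscle, epithelium and macrophage markers. These scalings moved every ratio together, and at most they fell by 0.041 on the log2 scale (total counts). The number of genes past the limit followed the limit. At 1.5-fold, 6 members were higher and 1 lower, with 556 genes higher and 1056 lower in all. With no limit on size, 8 members were higher and 2 lower, with 2704 genes higher and 2818 lower in all. At 3-fold, 0 members were higher and 1 lower (Rasd1), with 69 genes higher and 157 lower in all. With a mean of at least 5 CPM, fewer genes were compared, and 84 were higher and 190 lower in all. Of the list medians, that of the epithelium markers was 1.94 with at least 5 CPM, and that of the adipocyte markers 0.034 with total counts. Means of the members in place of medians gave 0.24 for adipocyte and 0.85 for skeletal muscle markers. No paired analysis was possible because each group holds 1 library, and for the same reason no library could be left out. Variation between mice, dissections and collection times was not measured, and genes with few reads, such as Hsd11b2 and Il6, allow no reading of small differences.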

Other observations

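Corticosterone has a daily rhythm, and Klf9 and Per1 are known as links between glucocorticoids and the circadian clock. Of 19 measured clock genes and clock outputs, beyond counting error 9 were higher with entacapone and 5 were lower. Of all measured genes, 20.2% were higher and 21.1% lower, so the lower count is near its share. The median log2 ratio of the clock list was 0.13. Npas2, a partner of BMAL1, stood at 15.5 CPM with entacapone and 6.73 CPM with vehicle (1.20, 0.84 to 1.57). Per1, which the receptor is also known to induce, stood at 148 CPM with entacapone and 81.6 CPM with vehicle (0.86, 0.75 to 0.97). Per2 (-0.08) was within counting error and Per3 (-0.21, -0.42 to -0.01) was lower. Bhlhe40, a repressor in the clock, was lowest at 10.4 CPM with entacapone and 28.2 CPM with vehicle (-1.44, -1.73 to -1.15), and the clock output Dbp was next at 7.03 CPM with entacapone and 12.5 CPM with vehicle (-0.83). The part of collection time, which the labels do not state, was not tested.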
